A study of Mus musculus with 79 samples.

Results

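The 4 genes described here, Dhtkd1, Aass, Aadat and D2hgdh, encode mitochondrial enzymes of lysine degradation and of 2-hydroxyglutarate removal. They were chosen by symbol, out of 22335 gene symbols on the array, and each was represented by 1 probeset. RNA from quadriceps, a thigh muscle, was hybridised to Affymetrix mouse gene arrays. The mice were males of the BXD family, inbred strains bred from a cross of C57BL/6J with DBA/2J, and of these parents, called B6 and D2 here. They received chow diet (CD, Harlan 2018) or, from week 8 of age, high fat diet (HFD, Harlan 06414), and both groups were fasted overnight and sacrificed at 29 weeks. There were 42 CD arrays and 37 HFD arrays from 42 strains, of which 37 were measured on both diets. Each array held pooled RNA of about 5 animals of 1 strain, so the strain is the replicate and the spread between animals was not measured. RNA was extracted and hybridised in 2 batches, the first of 18 CD and 17 HFD arrays, the other of 24 and 20.

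Lysine is broken down mainly in mitochondria through saccharopine. AASS, a bifunctional enzyme, carries out the opening reactions, ALDH7A1 oxidises the semialdehyde that AASS makes, AADAT transfers the amino group of 2-aminoadipate, and DHTKD1 is the first subunit of the dehydrogenase that turns 2-oxoadipate into glutaryl-CoA. The same AADAT protein makes kynurenic acid from kynurenine, a breakdown product of tryptophan. D2HGDH oxidises D-2-hydroxyglutarate to 2-oxoglutarate, and loss of human D2HGDH causes D-2-hydroxyglutaric aciduria. Human DHTKD1 defects cause accumulation of 2-aminoadipate and 2-oxoadipate. The saccharopine route is best known from liver and kidney.

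On HFD the array signal of Aass and Aadat fell, while the signal of Dhtkd1 and D2hgdh did not pass the test between diets. The 2 calls of 4 genes stand beside 38.1% of all probesets called between diets. None of the 4 genes separated the strains into clusters, kept a detectable strain order between diets or differed detectably between B6 and D2. Values are the authors' scores, a log-type measure in which every array has mean 8 and SD 2 over all probesets. The log base was not stated, so differences are given in score units and not as folds. On 3 arrays the liver transcript albumin (Alb) stood far above the rest, at 11.641 and 11.5 in BXD51 on HFD and CD and at 11.591 in BXD66 on CD, while the next highest array had 9.027 and the CD median was 7.063.

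The promoters of Aass and Aadat are shown because these are the 2 of the 4 genes that fell on HFD. Both are RefSeq sequences of build GRCm38.p6 and run from 250 bases before the gene start to 50 bases after it, 5′ to 3′ on the strand of the gene. Capitals mark matches, on either strand, to any of 5 motifs. The motifs searched were the box spelled CCAAT, the Sp1 box written as GGGCGG, the start-site motif with letters TATAAA, the E box whose letters are CACGTG, and the CRE core, which reads TGACGT. The Aass promoter lies at chr6:23132937-23133236 on the minus strand, and the Aadat promoter at chr8:60505874-60506173 on the plus strand.
Aass: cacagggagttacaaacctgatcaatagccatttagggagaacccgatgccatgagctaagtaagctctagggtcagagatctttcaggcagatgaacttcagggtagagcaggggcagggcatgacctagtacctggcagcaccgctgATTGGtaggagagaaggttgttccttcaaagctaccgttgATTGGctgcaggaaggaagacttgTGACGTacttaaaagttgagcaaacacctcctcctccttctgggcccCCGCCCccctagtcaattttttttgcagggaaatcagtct
Aadat: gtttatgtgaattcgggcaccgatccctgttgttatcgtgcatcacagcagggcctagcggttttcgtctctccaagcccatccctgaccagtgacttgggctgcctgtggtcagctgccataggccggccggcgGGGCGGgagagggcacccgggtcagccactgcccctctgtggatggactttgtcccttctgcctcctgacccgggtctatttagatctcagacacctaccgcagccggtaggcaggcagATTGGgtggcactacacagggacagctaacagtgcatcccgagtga
Both windows held CCAAT and GGGCGG. Each motif counted alone occurred in 37.4% and 35.7% of 32851 mouse promoter windows of this length, and the share with both was not counted. Aass had CCAAT on the opposite strand at -101 and -61, counted from the gene start, GGGCGG on the opposite strand at 11 and TGACGT at -37. Aadat had GGGCGG at -115 and CCAAT on the opposite strand at 5. TGACGT occurred in 7.51% of all windows. Of the genes that did not fall, Dhtkd1 held CCAAT at -28 and, on the opposite strand, at -55, and CACGTG at 17, while D2hgdh held GGGCGG at -81 and -43. CACGTG occurred in 7.15% of all windows, and TATAAA, which none of the 4 windows held, in 13.6%. GC content was 50.3% in Aass and 60.3% in Aadat, against a median of 52.7% over all windows. The letters describe the windows, and no binding was measured.

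Aass scores ran from 6.147 in BXD96 to 6.633 in BXD95 on CD, with a median of 6.43, and from 5.885 in BXD97 to 6.522 in BXD56 on HFD, with a median of 6.235. The mean was 6.42 ± 0.12 on CD (SD, n = 42) and 6.22 ± 0.15 on HFD (SD, n = 37). The ranges overlapped, but 34 of the 37 HFD arrays lay below the CD median and 12 lay below the lowest CD array. Aass fell by 0.201 (SE 0.0303) on HFD, with a limma adjusted p of 9.64e-08 over all probesets. It was lower in 31 of 37 paired strains, and the differences between a strain's arrays ran from -0.547 in BXD97 to 0.242 in BXD84.

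Aadat scores ran from 5.774 in BXD61 to 6.481 in BXD68 on CD, with a median of 6.073, and from 5.628 in BXD49 to 6.339 in BXD83 on HFD, with a median of 5.928. The mean was 6.07 ± 0.15 on CD (SD, n = 42) and 5.93 ± 0.15 on HFD (SD, n = 37). The overlap was wider than for Aass, since 31 HFD arrays lay below the CD median and 5 below the lowest CD array. Aadat fell by 0.142 (SE 0.0344), with a limma adjusted p of 0.000555, and was lower in 28 of 37 strains. Differences within a strain ran from -0.539 in BXD68 to 0.336 in BXD98.

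**Figure D1:**
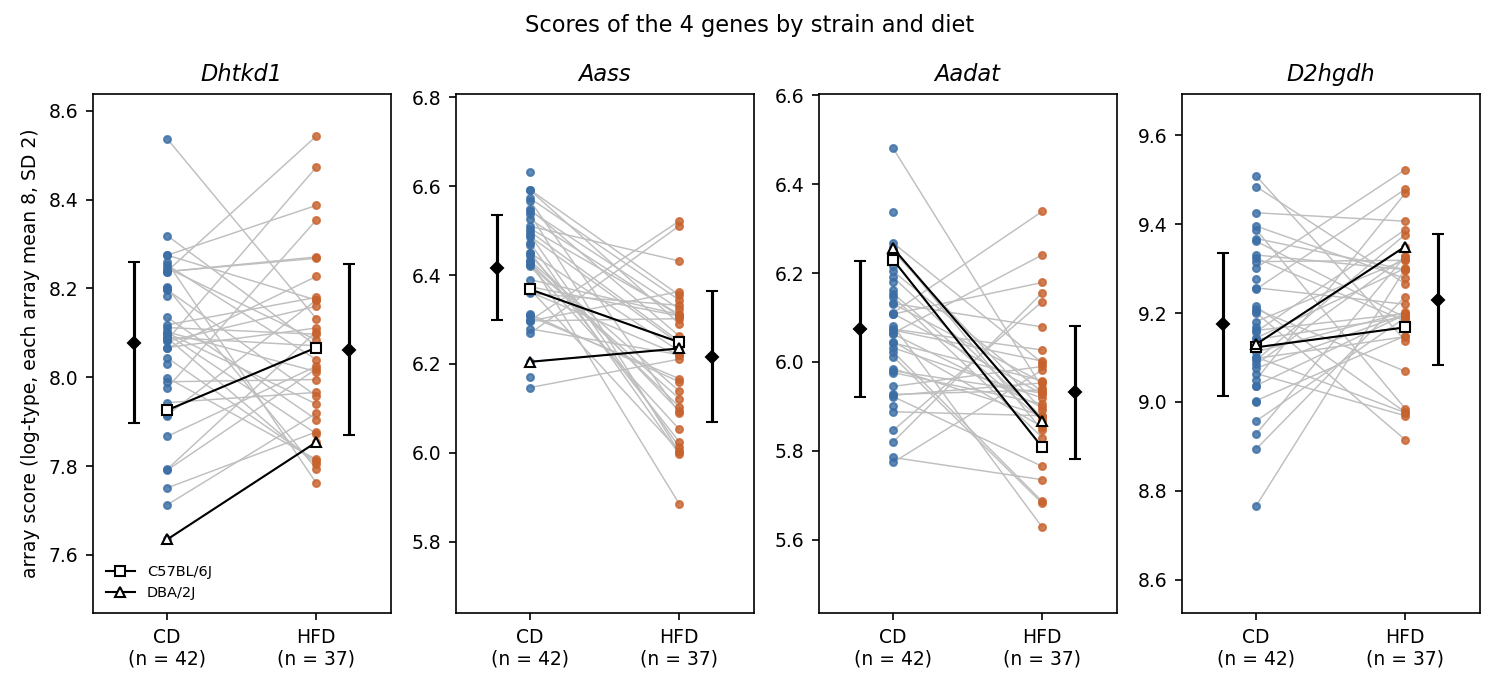
Array scores (log-type units, each panel with its own y range of equal height) of the 4 genes, where each dot is 1 strain on CD or HFD and grey lines join the arrays of a strain. Diamonds with bars are means with SD, and open symbols are the parental strains. Aass and Aadat shift down on HFD, with means of 6.42 and 6.22 for Aass, while Dhtkd1 and D2hgdh overlap over nearly their whole ranges.

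Dhtkd1, whose product acts after that of Aadat, scored from 7.635 in DBA/2J to 8.537 in BXD73 on CD, with a median of 8.0935, and from 7.762 in BXD70 to 8.543 in BXD79 on HFD, with a median of 8.067. Its means were 8.08 ± 0.18 on CD (SD, n = 42) and 8.06 ± 0.19 on HFD (SD, n = 37). The diet difference was -0.0155 (SE 0.0421, 95% interval -0.0993 to 0.0683), with a limma adjusted p of 0.804. Dhtkd1 was higher on HFD in 20 strains and lower in 17, with single strains ranging from -0.497 in BXD70 to 0.389 in BXD69. The sign of this small difference turned, to 0.0016, when each array was centred on its median.

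D2hgdh scored from 8.766 in BXD73 to 9.509 in BXD87 on CD, with a median of 9.1595, and from 8.915 in BXD71 to 9.523 in BXD98 on HFD, with a median of 9.22. Its means were 9.17 ± 0.16 on CD (SD, n = 42) and 9.23 ± 0.15 on HFD (SD, n = 37). The difference was 0.056 (SE 0.0352, 95% interval -0.0141 to 0.126), with a limma adjusted p of 0.21. It was higher on HFD in 22 strains and lower in 15.

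Diet calls were common on these arrays, so the counts are read against all probesets. Of 35556 probesets, 38.1% were called at an adjusted p below 0.05, 19.3% lower and 18.9% higher on HFD. The split depended on scaling: 49.5% of the calls were higher with the scores as deposited (6703 higher, 6848 lower) and 58.7% with each array centred on its median (8199 higher, 5758 lower). Aass and Aadat both lay in the second of 10 deciles of mean signal, where 28.8% of 3556 probesets were called lower. Within that decile 16.3% of probesets had a difference at or below that of Aass, and 25.9% at or below that of Aadat.

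Aass and Aadat were also close to the floor of the array. Probesets for olfactory receptors, which are expressed mainly in the nose, served as a gauge of that floor. The Aass mean exceeded 60.4% of 1154 such probesets and the Aadat mean 48.2%, against 97.7% for Dhtkd1 and 99.6% for D2hgdh. The mean of the olfactory probesets moved with diet too, from 6.10 ± 0.053 on CD (SD, n = 42) to 6.05 ± 0.0455 on HFD (SD, n = 37). Of these probesets 436 (37.8%) were called lower and 218 higher. With that mean as a covariate, Aass fell by 0.195 (limma adjusted p 2.88e-06) and Aadat by 0.114 (limma adjusted p 0.0137). Whether signal of other transcripts on these dim probesets contributed was not tested.

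Within batch 1, Aass fell by 0.198 (limma adjusted p 0.00687) and within batch 2 by 0.203 (limma adjusted p 7.85e-05). Aadat fell by 0.137 within batch 2 (limma adjusted p 0.0206), and its difference of -0.149 within batch 1 did not pass (limma adjusted p 0.0648). Among the 8 strains whose arrays lay in different batches, the mean difference was -0.256 ± 0.255 for Aass (SD) and -0.0584 ± 0.215 for Aadat (SD), lower in 7 and 5 strains.

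Of the 37 paired strains, 31 were lower for Aass, 28 for Aadat and 24 for both. Aass alone was lower in 7 strains, Aadat alone in 4, DBA/2J among them, and neither in BXD63 and BXD84. The plot of paired differences shows that the drop was spread over most strains and not carried by a few.

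**Figure D2:**
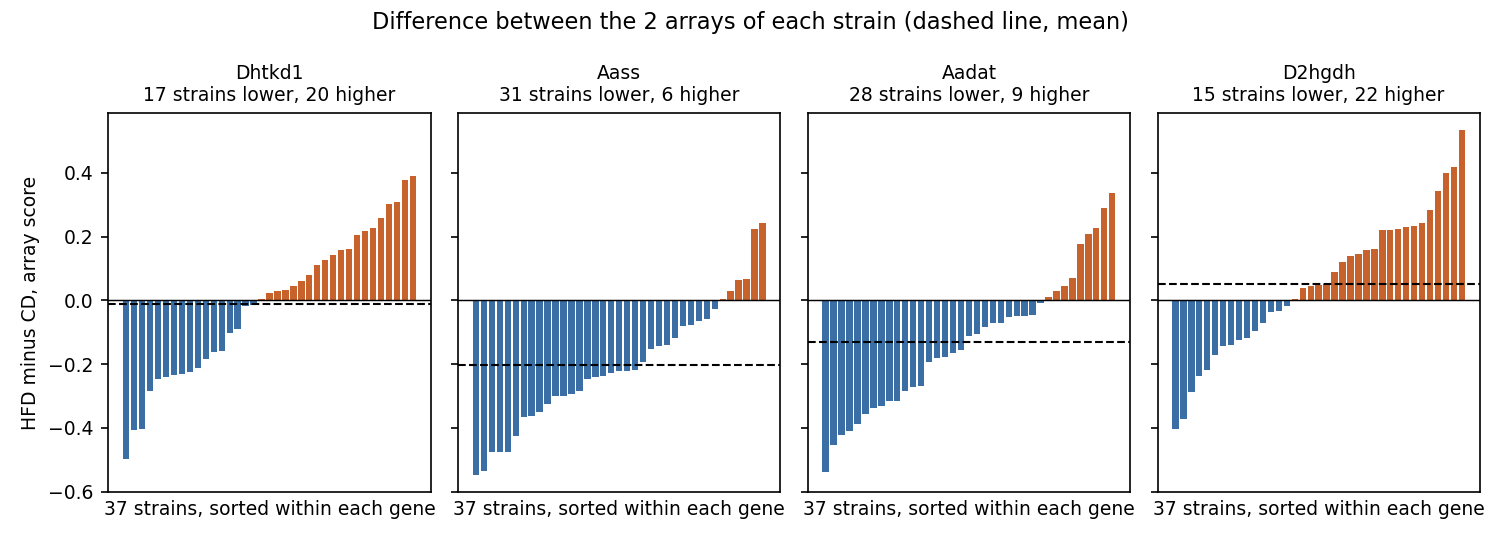
HFD minus CD score of each of 37 strains, sorted from lowest to highest within each gene, with blue bars for strains lower on HFD and orange bars for strains higher. Dashed lines mark the means; 31 strains lie below 0 for Aass and 28 for Aadat, against 17 for Dhtkd1 and 15 for D2hgdh.

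The tissue label was checked against markers. The 6 skeletal muscle markers (Ckm, Acta1, Mb, Tnnt3, Myh4 and Pygm) had mean scores of 14.3 to 15.2, and 1, Mb, was higher on HFD. Of 8 adipocyte markers, 5 were higher and 1 lower on HFD, and their mean score ran from 9.20 to 10.99 on CD and from 9.30 to 11.3 on HFD. Of 4 macrophage markers 3 were higher (mean score 8.53 to 9.45 on CD, 8.71 to 9.99 on HFD), as were 3 of 4 endothelial markers (9.78 to 10.6 and 10.1 to 10.7). No marker of these lists was at 0, and none of 5 slow fibre and 4 liver markers passed. Over all probesets 18.9% were called higher and 19.3% lower, and with strain as a block 20.7% and 20%. With strain as a block all 4 macrophage markers were higher, and the liver marker Fgb, a fibrinogen chain, was lower on HFD (-0.157, limma adjusted p 0.00166, lower in 29 of 37 strains), against -0.149 (limma adjusted p 0.0568) without the block. The part of other cell types in the diet differences was not tested, and in bulk muscle fewer cells of a type cannot be told apart from less RNA per cell.

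Liver is a site of lysine breakdown, so the arrays with high albumin were looked at apart. In the BXD66 CD array Aass, at 6.592, ranked 2 and Aadat, at 6.268, ranked 3 from the highest of 42, and Dhtkd1, at 8.102, ranked 19. The BXD51 arrays, with albumin scores of 11.5 on CD and 11.641 on HFD against 11.591 in BXD66, ranked 6 of 42 and 15 of 37 for Aass, and 24 of 42 and 22 of 37 for Aadat. Dhtkd1 ranked 31 of 42 and 24 of 37 there, and D2hgdh ranked 27 to 30 in all 3 arrays. Without BXD51 and BXD66, Aass fell by 0.199 (limma adjusted p 3.26e-07) and Aadat by 0.139 (limma adjusted p 0.00132).

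Of 19 lysine pathway genes on the array, 2 fell on HFD, Aass and Aadat, and 6 rose. The 2 that fell lay in decile 2 of mean signal and the 6 that rose in decile 10. These 8 calls stand against 38.1% of all probesets called, 18.9% higher and 19.3% lower, so the number called is near the background. The risers were Dlst, the transferase subunit shared by the DHTKD1 and OGDH complexes, Etfa, Etfb and Etfdh, which pass electrons from glutaryl-CoA dehydrogenase to ubiquinone, and Hadh and Acat1, which finish the conversion to acetyl-CoA. Hadh rose by 0.179 (SE 0.0382, limma adjusted p 0.000101), Acat1 by 0.178 (SE 0.0329, limma adjusted p 8.13e-06) and Dlst by 0.0669 (SE 0.0256, limma adjusted p 0.0314). Hadh and Acat1 passed under each of 14 alternatives, in each batch alone too. The others did not: with the olfactory covariate Dlst, Etfa and Etfdh were not called (limma adjusted p 0.0992, 0.0916 and 0.258), and without BXD51 and BXD66, or quantile normalized again, Dlst and Etfdh were not (0.0658 and 0.0773, 0.0946 and 0.0602). Etfdh also lost its call without the parents (0.0796) and without probesets below the median (0.0524), and Dlst in the paired strains alone without the block (0.0601). These 6 enzymes also serve fatty acid oxidation or the citric acid cycle. Gcdh, the glutaryl-CoA dehydrogenase particular to lysine, hydroxylysine and tryptophan, had a difference of -0.06 (limma adjusted p 0.209), and Dld, the shared dihydrolipoyl subunit, one of 0.0533 (limma adjusted p 0.337). Echs1, also of the lysine list, was not called either, with a difference of 0.0571 (limma adjusted p 0.28).

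The pairing of arrays by strain mattered most for Aldh7a1, the enzyme between AASS and AADAT. Its difference was -0.102 (SE 0.0518, limma adjusted p 0.112) without the strain and -0.112 (SE 0.0234, limma adjusted p 0.000193) with strain as a block, and it was lower on HFD in 33 of 37 strains. With the block the lysine list held 7 higher and 4 lower genes, the added ones being Aldh7a1 and Slc7a1, a cationic amino acid carrier, which fell, and Crym, a ketimine reductase, which rose. The block called 40.6% of all probesets, 20.7% higher and 20% lower. In the fit without the block, the median difference was 0.0533 over the list and -0.000663 over all probesets. Within batch 1 alone 2 genes were higher and 1 lower, where 12.6% of all probesets were called, 5.82% higher and 6.81% lower. Within batch 2 alone 3 were higher and 2 lower, where 24.4% were called, 12.2% in each direction.

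**Figure D3:**
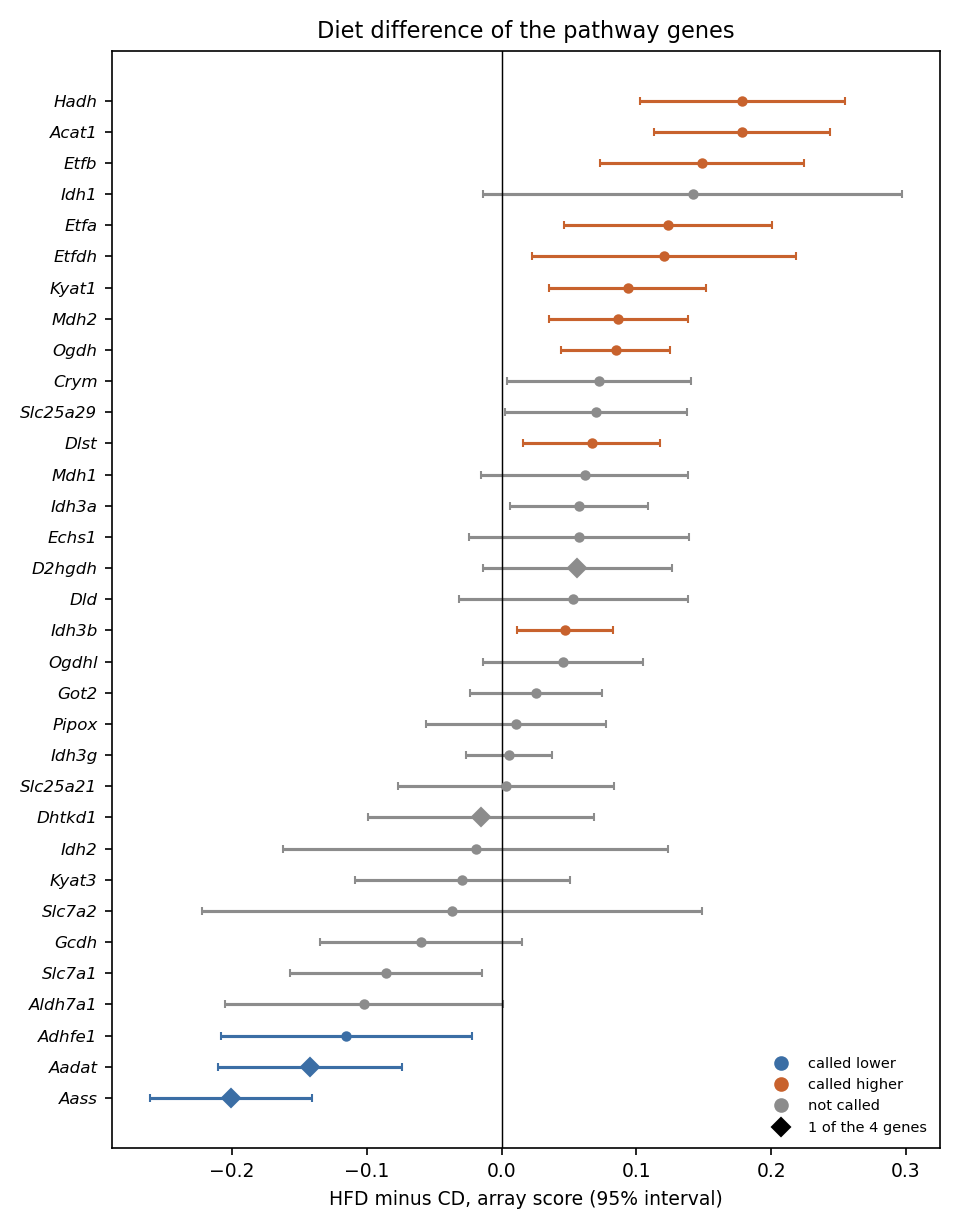
HFD minus CD difference in array score, with its 95% interval from limma, for the 33 genes of the lysine, hydroxyglutarate and kynurenine lists, sorted by difference. Blue marks genes called lower, orange those called higher and grey those not called; diamonds mark the 4 genes, of which Aass and Aadat sit at the bottom, at -0.201 and -0.142.

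Of 14 genes of hydroxyglutarate and 2-oxoglutarate turnover, 1 fell, 6 rose and 7 did not pass, D2hgdh among the last, against 18.9% of all probesets higher and 19.3% lower. Adhfe1, a transhydrogenase that makes D-2-hydroxyglutarate, fell by 0.115 (SE 0.0469, limma adjusted p 0.0436), and by 0.0971 (limma adjusted p 0.0241) with strain as a block. The block added 2 risers, Idh3a (0.059, limma adjusted p 0.00548, higher in 29 of 37 strains) and Idh1 (0.127, limma adjusted p 0.0354, higher in 23), which did not pass without it (limma adjusted p 0.069 and 0.146). With the block 20.7% of all probesets were called higher and 20% lower. Adhfe1 was not called in the paired strains alone without the block, without strain BXD63, with each array centred on its median, without probesets below the median or with the olfactory covariate. The 6 that rose were Ogdh, Idh3b and Mdh2 of the citric acid cycle and Etfa, Etfb and Etfdh, which also receive the electrons of D2HGDH. Idh3b was not called when quantile normalized again (limma adjusted p 0.182). Ogdh, the 2-oxoglutarate counterpart of Dhtkd1, rose by 0.0845 (SE 0.0203, limma adjusted p 0.000515). No gene of this list was called within batch 1 alone, where 5.82% of all probesets were called higher and 6.81% lower. Within batch 2 alone 3 higher genes were called, against 12.2% of all probesets in each direction. Of the 4 kynurenine aminotransferases, Aadat fell and Kyat1 (Ccbl1 in the files) rose by 0.0934 (SE 0.0293, limma adjusted p 0.00795; 0.0601 with the olfactory covariate), while Kyat3 and Got2 did not pass (limma adjusted p 0.6 and 0.438). Kyat1 was not called within batch 1 alone or within batch 2 alone (limma adjusted p 0.19 and 0.0702).

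Both parents were hybridised in batch 1, with 1 array per diet. Dhtkd1 scored 7.926 on CD and 8.067 on HFD in B6, and 7.635 and 7.854 in D2, whose CD array was the lowest of all. The B6 minus D2 difference, fitted with the spread of all paired strains, was 0.252 (SE 0.162, limma adjusted p 0.806). Aass scored 6.368 and 6.249 in B6 on CD and HFD, and 6.205 and 6.235 in D2. Aadat scored 6.23 and 5.808 in B6, and 6.256 and 5.868 in D2. D2hgdh scored 9.123 and 9.168 in B6, and 9.13 and 9.35 in D2. Aass differed by 0.0885 (SE 0.139), Aadat by -0.043 (SE 0.148) and D2hgdh by -0.0945 (SE 0.156), each with a limma adjusted p of at least 0.985. Across all probesets 1.26% were called between the parents.

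The parents moved the same way with diet in 3 of the 4 genes, with HFD minus CD differences of -0.422 in B6 and -0.388 in D2 for Aadat. Aass differed by -0.119 in B6 and by 0.03 in D2. The contrast of diet responses did not pass for any of the 4, nor for any probeset (0% of 35556 by limma, 1158 at an unadjusted p below 0.05), and with 1 difference per parent its SE was 0.279 to 0.327.

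The array signal of neighbouring genes of the pathway did differ between the parents. Probesets were not checked for sequence differences between B6 and D2. Aldh7a1 scored 10.203 and 10.137 in B6 on CD and HFD against 9.767 and 9.427 in D2, a difference of 0.573 (SE 0.0998, limma adjusted p 0.000373). Adhfe1 scored 11.373 and 11.22 against 10.616 and 10.628, a difference of 0.675 (SE 0.149, limma adjusted p 0.0082). These were the only parental calls among the 19 lysine and 14 hydroxyglutarate genes, 1 in each, against 1.26% of all probesets.

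Strain means over both diets formed a single spread for each of the 4 genes. A mixture of 2 normals did not lower the Bayesian information criterion, whose drop was -10.2 for Dhtkd1, -6.55 for Aass, -10.9 for Aadat and -7.02 for D2hgdh, where separate clusters called for a drop of at least 10. Neither CD arrays alone nor HFD arrays alone met that criterion. Strain means ran from 7.7445 in DBA/2J to 8.391 in BXD79 for Dhtkd1, from 6.1585 in BXD97 to 6.4735 in BXD66 for Aass, from 5.76 in BXD62 to 6.225 in BXD83 for Aadat and from 9.0165 in BXD45 to 9.4165 in BXD49 for D2hgdh. Compared with probesets of the same signal decile, the SD over CD arrays was at the 3.18 percentile for Aass, 24.6 for Aadat, 59.8 for D2hgdh and 70.8 for Dhtkd1. Over HFD arrays these percentiles were 18.1, 19.8, 39.2 and 65.7.

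Strains did not hold a detectable order between diets. After removal of batch means, Pearson's r between CD and HFD over 37 strains was 0.27 for Dhtkd1 (rho 0.243, permutation p 0.106 and 0.146, adjusted p 0.344 and 0.427). It was -0.121 for Aass (rho -0.0209, permutation p 0.478 and 0.903, adjusted p 0.748 and 0.966). For Aadat it was -0.0212 (rho -0.0558, permutation p 0.9 and 0.743, adjusted p 0.964 and 0.902), and for D2hgdh 0.0193 (rho 0.0109, permutation p 0.909 and 0.949, adjusted p 0.967 and 0.982). The adjustment ran over all 35556 probesets, of which 10.6% passed by r, and the median r was 0.14. All tests were two-sided.

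For Dhtkd1 r was 0.38 over the 12 strains with both arrays in batch 1, 0.23 over the 17 with both in batch 2, 0.305 over the 8 with arrays in different batches and 0.222 when the 2 strains farthest from the median CD score were left out. For Aass these values were -0.121, 0.0361, -0.286 and -0.138, for Aadat -0.407, -0.133, 0.469 and -0.0123, and for D2hgdh -0.0903, 0.067, 0.00642 and 0.0965. Dhtkd1 was above 0 in each of these subsets, and each of the other 3 genes changed sign in at least 1.

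Some other pathway genes, all brighter than the 4, did pass this test. Of 33 pathway genes, 10 passed by r and 6 by rho, against 10.6% and 9.25% of all probesets. All 10 lay in signal deciles 9 and 10, where 22.6% and 31.9% of probesets passed by r. The share was 1.86% in decile 2, which holds Aass and Aadat, 8.38% in decile 6 of Dhtkd1 and 15.4% in decile 8 of D2hgdh, so the brighter genes do not show what could be detected at the signal of the 4. Aldh7a1 had the highest r, 0.827 (rho 0.817, permutation p 1e-05 for both, the smallest the draws can give, adjusted p 0.000423 and 0.000501). Its r was 0.797 within batch 1, 0.942 within batch 2, 0.685 in mixed strains and 0.798 without the 2 farthest strains, and its strain means did not split into clusters by the same criterion. Idh3a (r 0.69) and Idh1 (r 0.618), isocitrate dehydrogenases that make 2-oxoglutarate, and Adhfe1 (r 0.499) and Dlst (r 0.512) were also among the 10.

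**Figure D4:**
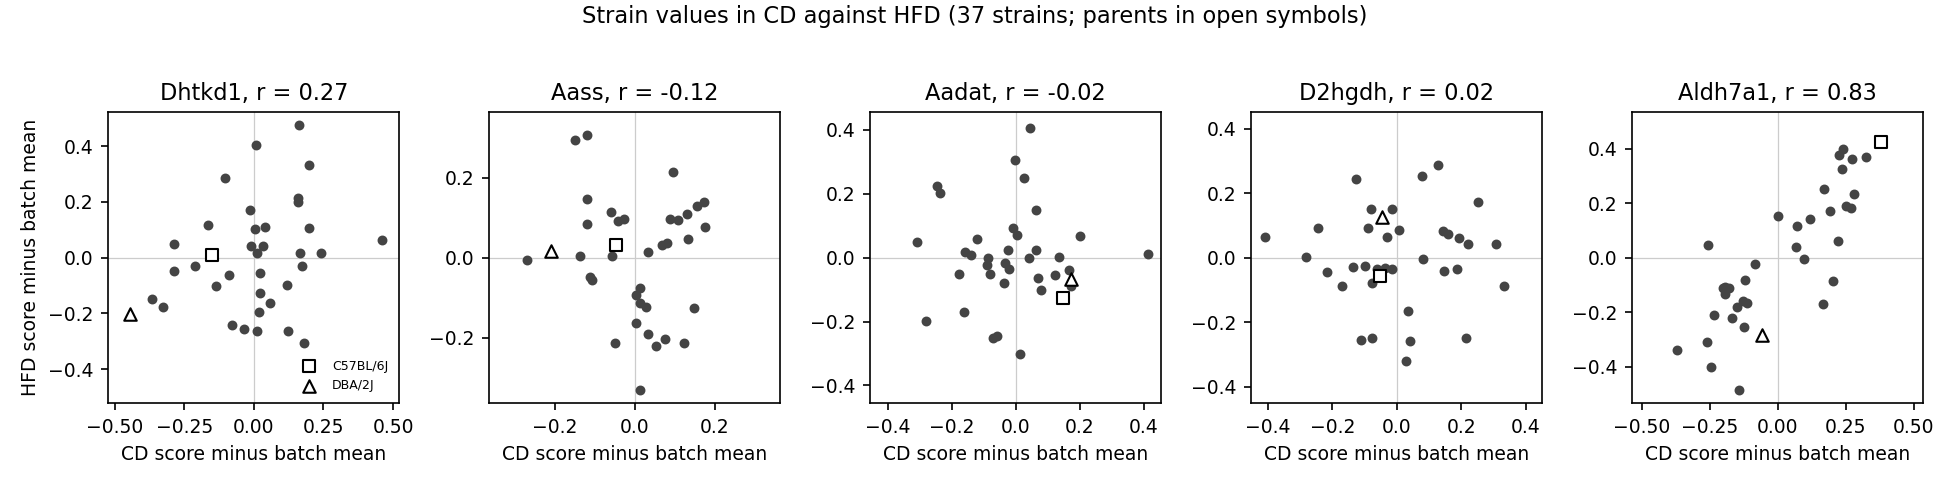
CD score against HFD score of 37 strains after removal of batch means within each diet, for the 4 genes and Aldh7a1, with B6 as an open square and D2 as an open triangle. The 4 genes form round clouds with r between -0.12 and 0.27, while Aldh7a1 lies along a line with r of 0.83.

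No relation between the 4 genes over strains passed the test. Over the 6 pairs in each diet, r ran from -0.0969 for Aass with D2hgdh on CD to 0.154 for Aass with Aadat on HFD, and rho from -0.187 to 0.256. Over all strains of a diet no pair reached an unadjusted permutation p below 0.05 (lowest 0.364 for r and 0.127 for rho, adjusted p at least 0.69 and 0.548 over each first gene's relations with all probesets). Aass with Aadat, the pair that fell with diet, had r of 0.0775 on CD (-0.0492 in batch 1, 0.193 in batch 2) and 0.154 on HFD (0.36 and -0.0867). Without the 2 strains farthest in the first gene, r ran from -0.262 to 0.189 over the 12 relations, and within batches from -0.418 to 0.36. The lowest, Dhtkd1 with Aass over the 24 CD arrays of batch 2, had an unadjusted permutation p of 0.0424 and an adjusted p of 0.999, against an r of 0.258 over the 18 CD arrays of batch 1, and was the only 1 of 60 such alternative values below 0.05 before adjustment.

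The genes whose strain means over both diets were most like each of the 4 are given as a description, over 37 strains and 22334 other genes. For Dhtkd1 these were Npas2 (r 0.734; 0.393 on CD and 0.454 on HFD), a transcription factor of the circadian clock, Drg2 (0.664; 0.301 and 0.526) and Zwint (0.658; 0.61 and 0.696). For Aass they were Ibsp (0.601; 0.286 and 0.6), Apba2 (0.587; 0.161 and 0.523) and 6430573F11Rik (0.557; 0.112 and 0.643). For Aadat they were Isl1 (0.73; 0.39 and 0.258), Cort (0.709; 0.226 and 0.446) and Tal1 (0.681; 0.304 and 0.456). For D2hgdh they were Pramef8 (0.607; 0.701 and 0.134), Rps28 (0.57; 0.34 and 0.412) and Cbfa2t2 (0.564; 0.532 and 0.496). None of the 10 genes that matched the RefSeq table lay on the same chromosome as the gene it was most like.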

How the data were processed

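Each array measured total RNA of 1 quadriceps pool (about 5 males), amplified and labelled with biotin. The submitters' processing notes name Affymetrix Expression Console, and its version and settings were not given in the sources used here. The deposited values are a score per probeset, which the authors scaled to mean 8 and SD 2 on each of 79 arrays over 35556 probesets. Their log base is not stated, so tests planned for log values were run on the scores.

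Each gene was read from its probeset with the highest mean, named by the files' symbols. The diet difference was fitted with limma 3.58.1 (R 4.3.3) on all arrays with diet and batch as terms. Parents were compared in a fit with a term for every strain besides diet and batch, which assumes that they vary like the other strains, and their diet responses over the paired differences. Benjamini-Hochberg adjustment ran over all probesets, with calls below 0.05. Correlations used batch-centred scores and 100000 permutations. Strain clusters needed a BIC drop of at least 10 and Ashman's D above 2 (scikit-learn 1.9.0). Pairing comes from the strain names in the labels. The 2 arrays of a strain correlated over probesets with a median of 0.205 after batch centring, above 0.1 in 33 of 37 strains. Scripts were tested on simulated data. The number of arrays limits the precision.

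The genes and lists were chosen with earlier results of these data known. Named were the 4 genes, pathway genes called between diets or parents, the marker lists, and the 3 genes most like each of the 4. Other genes, such as Gcdh, Dld, Echs1 and those called only with the strain block, were named after their values were seen. Lists covered lysine degradation (20 genes, 19 on the array), hydroxyglutarate turnover (14, besides 1 item not reported here), kynurenine aminotransferases (4) and markers of muscle, adipocytes, liver, slow fibres, macrophages and endothelium. Promoters came from RefSeq (GRCm38.p6). Alternatives covered batch, strain block, strains left out, scaling, dim probesets and the methods' t-test.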

Additional observations from a re-analysis of the deposited data

How the results depend on the processing

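The drop of Aass on HFD passed under each of 13 alternatives (-0.209 to -0.172, adjusted p at most 0.00687), and that of Aadat under each but batch 1 alone (-0.149, adjusted p 0.0648), with a range of -0.149 to -0.114. Neither has a value without probesets below the median. Dhtkd1 and D2hgdh passed under none of 14, and Dhtkd1 changed sign, to 0.00159, with each array centred on its median. With strain as a replicate block the differences were -0.0131 for Dhtkd1, -0.208 for Aass, -0.138 for Aadat and 0.0548 for D2hgdh, and the pairing changed no call of these 4. Over all probesets 13551 were called between diets, against 14441 with the block, 4491 in batch 1 alone, 8691 in batch 2 alone and 5292 without probesets below the median. Between parents 447 were called, and 4 from the 4 parental arrays alone. No parental difference of the 4 genes passed or changed sign under any alternative run. The methods' t-test called 13650 after Benjamini-Hochberg adjustment. The olfactory covariate and the fit without BXD51 and BXD66 were chosen after seeing the data. Each gene had 1 probeset, so the alternative over other probesets could not be run.

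Correlations between diets changed sign without any passing, for D2hgdh to -0.0903 in batch 1, for Aass to 0.0361 in batch 2, and for Aadat to 0.469 in strains of different batches and 0.0219 without the parents. Relations between genes did so in 18 of 60 cases, none passing after adjustment. On CD, these were in batch 1 Dhtkd1 with Aass (0.258) and Aadat (0.0243), and Aass with Aadat (-0.0492); in batch 2 Dhtkd1 (-0.0186) and Aass (0.235) with D2hgdh; without the parents Dhtkd1 with Aadat (0.0602) and D2hgdh (-0.0205); and without the 2 farthest strains Aass with Aadat (-0.0101) and D2hgdh (0.0148). On HFD, they were in batch 1 Dhtkd1 with Aass (0.183), Aadat (0.113) and D2hgdh (0.0594), and Aass with D2hgdh (0.0734); in batch 2 Aadat with Aass (-0.0867) and D2hgdh (-0.0737); and without the 2 farthest strains Dhtkd1 with Aass (0.0509) and Aadat (0.0636), and Aadat with D2hgdh (-0.0306).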
